A study of Homo sapiens with 6 samples.

Results

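Oxidative phosphorylation is carried out in the inner mitochondrial membrane by complexes I to V, whose subunits come from the nuclear and the mitochondrial genome. Complexes I to IV pass electrons from NADH and succinate to oxygen and build a proton gradient, which complex V, the ATP synthase, uses to make ATP. The catalytic centres of complexes III and IV hold heme groups, cytochrome c carries electrons between them on a heme, and mitochondrial transcripts are made from long polycistronic precursors that are then processed.

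The genes described here are the subunits that share the symbol stems of the complexes (NDUFA to NDUFC, NDUFS and NDUFV for complex I, SDHA to SDHD for II, UQCR for III, COX4 to COX8 for IV, ATP5 for V) and the messenger RNA genes of mitochondrial DNA. They numbered 101 of the 33514 gene symbols counted, 88 nuclear and 13 mitochondrial. By complex there were 43 genes for I, 4 for II, 10 for III, 22 for IV and 22 for V. NDUFA4 and its homologue NDUFA4L2 were counted with complex IV, and ATP5S and the inhibitor ATP5IF1 are factors associated with complex V. Antisense genes (2) and read-through genes (2) were left out, no pseudogene matched the stems, and 2 subunits with other names, NDUFAB1 and CYC1, were followed separately.

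The cells were PC3, a human prostate cancer line that was established from a bone metastasis, grown in RPMI medium with serum. Total RNA was sequenced after heme, the iron-porphyrin cofactor, had been present at 50 µM for 2 h or for 4 h, and without treatment as control, for which the labels give neither a vehicle nor a time. All values are thus from 1 cell line. Each of the 3 groups had 2 libraries, with between 53129375 and 55537611 reads counted to genes. Whether the 2 libraries of a group came from separate cultures is not stated in the labels, and the p-values therefore rest on a spread between libraries that may be technical.

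Levels are given as CPM, gene counts divided by the library's TMM-scaled total. Errors of means are SDs over n = 2 libraries, and differences are log2 fold changes with the standard error (SE) of the fit. A gene is called higher or lower when edgeR's quasi-likelihood test gave an adjusted p under 0.05 (Benjamini-Hochberg over all 16209 genes tested, two-sided). Of the 101 genes, 95 passed the filter on low counts, 82 nuclear and all 13 mitochondrial. The other 6 were the tissue-restricted isoforms COX4I2, COX6A2, COX7A1, COX7B2 and COX8C and the subunit g copy ATP5MGL, with at most 8 counts in any library and 0 counts of COX7B2 in all of them. A count of 0 allows up to 3 counts, or 0.0565 CPM in the shallowest library, counting error only.

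HMOX1, the heme-degrading enzyme, had 451 and 327 CPM at 2 h and 382 and 341 CPM at 4 h, against 10.4 and 11.4 CPM in control. The epithelial and carcinoma markers KRT8, KRT18, KRT19, EPCAM and VIM summed to between 1665 and 1901 CPM at 2 h, 1656 and 1691 CPM at 4 h and 1692 and 1732 CPM in control. The prostate marker KLK3, which PC3 cells are known to lack, was at 0 in every library. Markers of other cells stood higher at 2 h. Blood markers summed to between 2.00 and 2.68 CPM at 2 h, 0.752 and 1.03 CPM at 4 h and 0.471 and 0.825 CPM in control, with HBB and HBA1 at 0, COL1A1 and COL1A2 to between 43.0 and 49.6, 24.5 and 32.4, and 25.6 and 28.8 CPM in the same order, and PECAM1 to between 33.8 and 41.1, 17.8 and 19.3, and 19.6 and 19.6 CPM. The part of these shifts in the results below was not tested.

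Stretches upstream of 6 genes are printed as examples from genes that were lower, not called or higher after 2 h. The 6 were not drawn by a rule and do not show how common the motifs are in each class, for which counts are given below. The stretches come from RefSeq (GRCh38.p14), read 5′ to 3′ on the gene's strand, and lie in the 250 bases before the start, outside all exons of GENCODE release 29. Capitals mark matches, on either strand, of the NRF1 motif with a free base (GCGCA, any base, then GCGC) or the ETS motif (CCGGAAG). NDUFB6 (chr9:32573185-32573334, minus strand), NDUFA12 (chr12:95003771-95003920, minus strand) and ATP5F1E (chr20:59032383-59032532, minus strand) were called lower, NDUFB4 (chr3:120596159-120596308, plus strand) and COX5B (chr2:97645890-97646039, plus strand) were not called, and NDUFA4L2 (chr12:57240763-57240912, minus strand) was called higher.
NDUFB6: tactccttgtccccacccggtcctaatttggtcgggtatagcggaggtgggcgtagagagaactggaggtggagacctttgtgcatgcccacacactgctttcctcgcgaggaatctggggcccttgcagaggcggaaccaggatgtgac
NDUFA12: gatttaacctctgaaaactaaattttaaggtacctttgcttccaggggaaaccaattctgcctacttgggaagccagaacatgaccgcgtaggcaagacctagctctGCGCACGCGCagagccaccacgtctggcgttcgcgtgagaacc
ATP5F1E: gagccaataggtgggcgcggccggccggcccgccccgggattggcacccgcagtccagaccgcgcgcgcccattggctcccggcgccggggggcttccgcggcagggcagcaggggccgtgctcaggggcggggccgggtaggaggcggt
NDUFB4: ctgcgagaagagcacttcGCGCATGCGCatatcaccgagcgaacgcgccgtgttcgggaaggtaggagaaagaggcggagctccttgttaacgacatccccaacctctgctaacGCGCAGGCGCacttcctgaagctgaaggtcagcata
COX5B: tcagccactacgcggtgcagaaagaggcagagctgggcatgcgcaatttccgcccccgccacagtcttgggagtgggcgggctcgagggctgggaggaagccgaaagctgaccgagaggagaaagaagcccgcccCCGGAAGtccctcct
NDUFA4L2: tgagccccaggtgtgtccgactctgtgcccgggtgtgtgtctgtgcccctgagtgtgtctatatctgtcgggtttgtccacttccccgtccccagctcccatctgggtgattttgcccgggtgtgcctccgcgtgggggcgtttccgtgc

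NRF1 and the ETS factor GABP (also called NRF2) are known activators of nuclear respiratory genes, and YY1 binds near many of their starts. Whole start windows (250 bases before to 50 after the start) were given for 71 of the 88 nuclear genes, 4 of them under a synonym, among 35116 windows in all. The NRF1 motif with a free base stood in 17 of 71 windows (23.9%), against 5.78% of all windows, and its palindromic form, contained in it, in 4 (5.63% against 1.24%). The ETS motif stood in 20 of 71 (28.2% against 10.3%) and the YY1 motif AAGATGGC in 11 (15.5% against 2.89%). Among genes called lower after 2 h with a window, 4 of 19 held the NRF1 motif with a free base, 5 the ETS motif and 4 the YY1 motif. Among genes not called the counts were 12, 15 and 7 of 47. A match is a description of these letters, not evidence of binding.

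In untreated PC3 cells the mitochondrial messenger RNAs were the most abundant. Per kilobase of transcript (the median length of a gene's protein-coding transcripts), MT-CO1, the catalytic subunit of cytochrome c oxidase, had 4152 ± 290 CPM (SD, n = 2), MT-CO2 4001 ± 139 and MT-ND1 3031 ± 9.85 CPM per kilobase in control. MT-ND6, the only messenger RNA encoded on the light strand, was the lowest of them at 1019 ± 50.8 CPM per kilobase. The highest nuclear gene of each complex per kilobase was NDUFB9 (339 ± 0.735) for I, SDHC (242 ± 11.9) for II, UQCRB (383 ± 26.7) for III, COX7C (578 ± 5.71) for IV and ATP5F1B, the catalytic beta subunit, (576 ± 11.9) for V. COX7C and ATP5F1B did not differ beyond their spread. At the low end were the second copies UQCRHL (0.528 ± 0.0586) and NDUFA4L2 (1.56 ± 0.33 CPM per kilobase).

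After 2 h of heme, 25 of the 95 genes tested were lower and 3 were higher than in control. Of all 16209 genes 15.8% were called lower and 15.9% higher, 31.7% in either direction, beside 26.3% lower and 3.16% higher among the genes of oxidative phosphorylation, with no test of these shares. Without control replicate 1 the share called lower was below that of all genes, 4.21% against 6.59%. The nuclear genes had a median log2 change of -0.19, with 68 of 82 negative, beside a median of 0.02 over all genes tested (-0.12, with 59 negative, beside 0.09 with library totals in place of TMM). In 56 of the 82 both 2 h libraries lay below both control libraries, and in 4 both lay above, where 33.2% and 34.6% of all genes did so. In bulk RNA, fewer cells with a transcript and less of it per cell cannot be told apart. The changes were small: the 24 nuclear genes called lower ran between log2 -0.64 and -0.27, with a median of -0.38.

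The nuclear median at 2 h was -0.20 without control replicate 1 (73 negative) and -0.20 without control replicate 2 (65 negative). Leaving out a control library also lowered the calls over all genes, so a lost call does not by itself show a smaller change. The count of lower genes depended on the libraries and the scaling used. It was 4 without control replicate 1, 13 without control replicate 2 (13.7%) and 12 with library totals (12.6%), where 6.59%, 9.33% and 11.2% of all genes were called lower. Library totals gave 3041 higher and 1815 lower calls over all genes, against 2579 and 2557 with TMM. With a per-library correction for transcript length and GC content the count was 43 (45.3%), beside 23.7% of all genes. NDUFB3, NDUFS5, COX6C and ATP5F1E, lower, and COX6B2, higher, kept their call under each of the 15 alternatives run; the other 23 each lost it without control replicate 1.

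**Figure D1:**
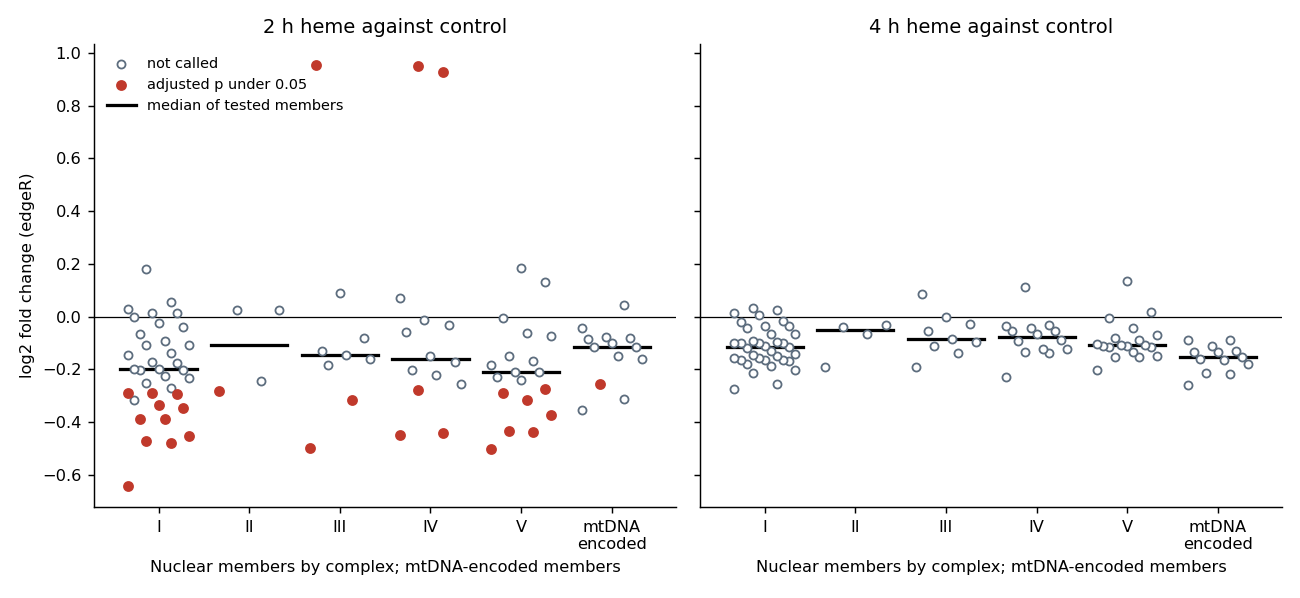
Log2 fold changes of the 95 tested genes at 2 h (left) and 4 h (right) against control, by complex for nuclear genes and pooled for mitochondrial genes; each point is a gene, filled where called, and bars are medians. At 2 h most points of complexes I to V lie below 0 and 3 stand near 0.95, while at 4 h no gene was called.

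Complex I, the NADH dehydrogenase, had 11 of 36 nuclear subunits lower (30.6%) and 0 higher at 2 h, with a median of -0.20. Of all genes 15.8% were lower and 15.9% higher. NDUFB3, an accessory subunit of the membrane arm (chr2:201071433-201085750), had 31.8 and 36.4 CPM at 2 h against 54.7 and 51.8 CPM in control, a log2 change of -0.64 (SE 0.12, edgeR adjusted p = 0.000902). Both 2 h libraries lay below both controls, and the fall of 36.0% was the largest among the 95 genes in this comparison. NDUFS5, an accessory subunit on the intermembrane side (chr1:39026318-39034636), had 103 and 107 CPM against 151 and 142 CPM in control (log2 -0.48, SE 0.10, edgeR adjusted p = 0.00339). NDUFA5 fell by 0.47 and NDUFB6 by 0.45 on the log2 scale, and neither overlapped its controls. The remaining falls, of NDUFC2, NDUFA1, NDUFA12, NDUFA8, NDUFB2 and NDUFS6, were between -0.39 and -0.29. NDUFB2 shares up to 1239 exon bases with ADCK2, BRAF or NDUFB2-AS1, so its counts are uncertain.

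The 7 nuclear core subunits of complex I hold the flavin and the iron-sulfur clusters, and the other 29 are accessory subunits. Of the core, only NDUFV2, a [2Fe-2S] protein of the NADH module, was lower, with 176 and 173 CPM at 2 h against 236 and 221 CPM in control (log2 -0.39, SE 0.10, edgeR adjusted p = 0.00849). NDUFV1, its flavin-binding partner, had 302 and 274 CPM against 260 and 294 CPM (log2 0.06, SE 0.10), and NDUFS1, the largest core subunit, 197 and 209 CPM against 206 and 196 CPM (log2 0.02, SE 0.09). The groups overlapped for both. NDUFS7 (log2 0.18) and NDUFS8 (0.01) also overlapped, and NDUFS3 was at -0.14. The core had a median of 0.02, against -0.23 for the accessory subunits, all 29 of which were negative and 10 of which were called. The ranges overlapped, since NDUFV2 and NDUFS3 lay within that of the accessory subunits. NDUFV2 shares 771 exon bases with AP005263.1 on its strand, so its counts are uncertain. The share called lower was 14.3% in the core and 34.5% among the accessory subunits, beside 15.8% of all genes. The difference between core and accessory subunits was not tested.

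Complex II, the succinate dehydrogenase, had 1 of 4 genes lower (25%, beside 15.8% of all genes). This was SDHB, the iron-sulfur subunit, with 159 and 152 CPM at 2 h against 192 and 186 CPM in control (log2 -0.28, SE 0.10, edgeR adjusted p = 0.0374). The flavoprotein SDHA had 142 and 133 CPM against 135 and 135 CPM, and the heme-binding membrane anchor SDHC 115 and 112 CPM against 108 and 115 CPM. Both overlapped control. The other anchor, SDHD, had 121 and 141 CPM against 153 and 157 CPM without being called (log2 -0.24, SE 0.11, edgeR adjusted p = 0.0910).

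Complex III, the cytochrome bc1 complex, had 2 of 9 nuclear subunits lower and 1, the second copy UQCRHL described below, higher. These shares, 22.2% lower and 11.1% higher, stand beside 15.8% and 15.9% of all genes. UQCRB, which binds ubiquinone, had 170 and 180 CPM at 2 h against 259 and 235 CPM in control (log2 -0.50, SE 0.12, edgeR adjusted p = 0.00513). The hinge protein UQCRH had 160 and 148 CPM against 188 and 196 CPM (log2 -0.32, SE 0.10, edgeR adjusted p = 0.0232). For both genes the 2 h libraries lay below the controls. The core protein UQCRC1 had 488 and 419 CPM against 419 and 434 CPM and overlapped control, UQCRC2 was at -0.18 and the Rieske iron-sulfur protein UQCRFS1 at -0.16, neither called.

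Complex IV, cytochrome c oxidase, had the accessory subunits COX6C, COX7B and NDUFA4 lower and 2 isoforms, described below, higher among 14 nuclear subunits tested. These shares, 21.4% lower and 14.3% higher, stand beside 15.8% and 15.9% of all genes. COX6C (chr8:99873200-99894062) had 135 and 136 CPM at 2 h against 183 and 186 CPM in control (log2 -0.45, SE 0.11, edgeR adjusted p = 0.00564). COX7B had 84.8 and 95.5 CPM against 125 and 119 CPM (log2 -0.44, SE 0.10, edgeR adjusted p = 0.00457), and NDUFA4, first described as a complex I subunit, 158 and 162 CPM against 195 and 194 CPM (log2 -0.28, SE 0.10, edgeR adjusted p = 0.0464). All 3 were below both controls. Other nuclear subunits were not called: COX4I1 was at -0.17, COX5A at -0.15, COX5B at -0.06, COX6A1 at -0.01 and COX6B1 at -0.22.

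Complex V had 7 of 19 nuclear genes lower (36.8%, beside 15.8% of all genes) and 0 higher, with a median of -0.21. ATP5F1E, the epsilon subunit of the F1 head (chr20:59025467-59032382), had 181 and 171 CPM at 2 h against 255 and 244 CPM in control (log2 -0.50, SE 0.11, edgeR adjusted p = 0.00425). The other F1 subunits were not called: alpha (ATP5F1A) was at -0.17, beta (ATP5F1B) at -0.07, gamma (ATP5F1C) at -0.21 and delta (ATP5F1D) at 0.13. The remaining 6 calls came from the peripheral stalk and the membrane sector. ATP5PF (coupling factor 6) had 208 and 211 CPM against 297 and 269 CPM, the membrane subunit ATP5MD (DAPIT) 50.1 and 52.1 CPM against 73.5 and 64.9 CPM, and the small proteolipid ATP5MPL 102 and 98.7 CPM against 135 and 125 CPM, all without overlap (log2 -0.43, -0.44 and -0.37). ATP5F1E shares 1188 exon bases with TUBB1 and ATP5PF 413 with GABPA or JAM2 on the other strand, so reads in the shared bases are uncertain. The stalk subunits ATP5PO and ATP5PB and the subunit c gene ATP5MC3 fell by 0.32, 0.29 and 0.27 on the log2 scale. ATP5PO shares 655 exon bases with AP000311.1 on its strand, so its counts are uncertain.

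**Figure D2:**
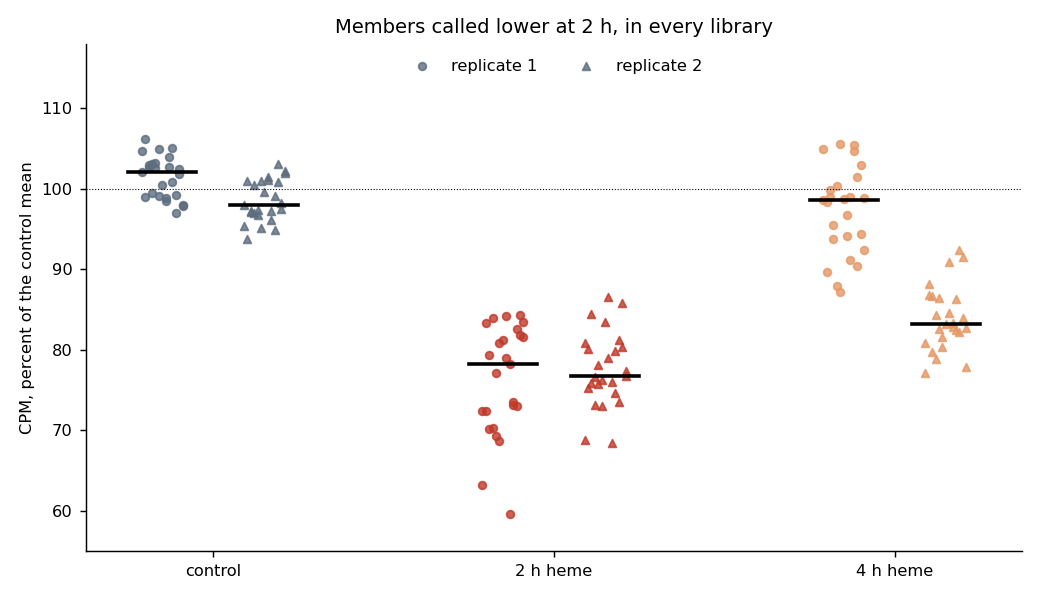
CPM of the 25 genes called lower at 2 h as percent of each gene's control mean, in every library; each point is a gene and bars are medians, with replicate 1 as circles and replicate 2 as triangles. The 2 h points were chosen to lie low, so what the plot adds is 4 h, where replicate 1 reaches the control level for many genes and replicate 2 stays below it.

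The 3 genes called higher were scarce second copies or homologues of subunits. COX6B2, the testis isoform of subunit VIb, had 16.8 and 16.5 CPM at 2 h against 7.46 and 10.0 CPM in control (log2 0.93, SE 0.16, edgeR adjusted p = 0.000616). NDUFA4L2, a homologue of NDUFA4 known to be induced in hypoxia, had 4.12 and 2.99 CPM against 1.56 and 2.11 CPM (log2 0.95, SE 0.27, edgeR adjusted p = 0.0151). UQCRHL, an intronless copy of UQCRH, had 2.64 and 1.82 CPM against 1.06 and 1.24 CPM (log2 0.95, SE 0.28, edgeR adjusted p = 0.0185). In each, both 2 h libraries lay above both controls. UQCRHL was no longer called without either control library or 2 h replicate 1, nor was NDUFA4L2 without control replicate 1 or 2 h replicate 1. Reads of UQCRHL and UQCRH may be assigned to the wrong copy, and COX6B2 shares 876 bases with AC020922.1 on its strand, so these values are uncertain.

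As shares of the counts of each pair, COX6B2 made up 13.6 ± 0.560% of COX6B counts at 2 h and 6.54 ± 0.0596% at 4 h, against 6.59 ± 1.34% in control. NDUFA4L2 made up 2.18 ± 0.522% at 2 h and 1.14 ± 0.490% at 4 h, against 0.936 ± 0.202% in control, and UQCRHL 1.42 ± 0.291% and 0.720 ± 0.0554%, against 0.595 ± 0.0476%. The usual forms COX6B1, NDUFA4 and UQCRH thus kept at least 86.0% of their pair in every library. Among the 3 genes for the c subunit, ATP5MC2 made up 38.6 ± 4.16% at 2 h against 31.7 ± 4.18% in control, ATP5MC3 38.9 ± 3.45% against 44.3 ± 3.71%, and ATP5MC1 22.5 ± 0.712% against 24.0 ± 0.473%.

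**Figure D3:**
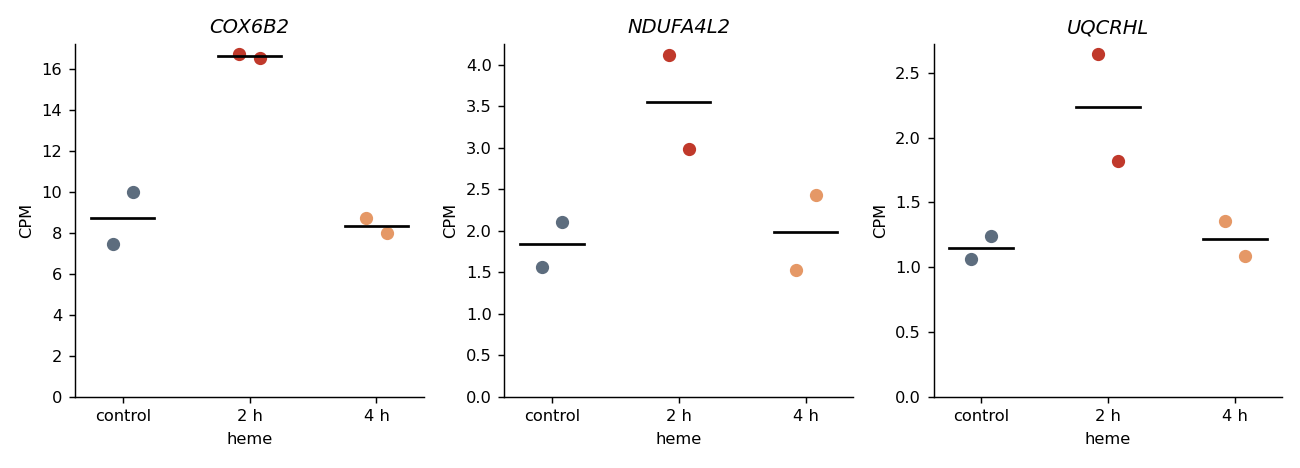
CPM of COX6B2, NDUFA4L2 and UQCRHL in every library (points) with group means (bars), in control and after 2 h and 4 h of heme. In each panel the 2 h libraries stand above the control libraries, and at 4 h the values return to the control range or its edge.

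Of the 13 mitochondrial messenger RNAs, MT-CO2, the subunit that receives electrons from cytochrome c, was the only one called at 2 h. It had 2241 and 2347 CPM at 2 h against 2804 and 2669.5 CPM in control (log2 -0.25, SE 0.09, edgeR adjusted p = 0.0387), and it lost the call without control replicate 1, control replicate 2 or 2 h replicate 1 and with library totals. The share called lower was thus 7.69% of the 13, beside 15.8% of all genes. The median over the 13 was -0.12, 12 were negative, and in 11 both 2 h libraries lay below both controls, where 33.2% of all genes did so. That median was -0.20 without control replicate 2, -0.18 without 2 h replicate 2, -0.07 without 2 h replicate 1 and -0.05 with library totals. MT-ND6, from the light strand, had 422 and 414 CPM against 554 and 516 CPM (log2 -0.35, SE 0.13, edgeR adjusted p = 0.0542). MT-ATP8, part of the membrane sector of complex V, had 206 and 200 CPM against 282 and 222 CPM (log2 -0.31, SE 0.16), and MT-ATP6, the proton channel subunit beside it, 1393 and 1449 CPM against 1621 and 1558 CPM (log2 -0.16, SE 0.10). These 4 genes had the largest differences of the mitochondrial set at 2 h.

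The remaining mitochondrial genes were closer to control. MT-CO1 had 5748 and 6072 CPM at 2 h against 6718 and 6087 CPM (log2 -0.12, SE 0.09), MT-CO3 2152 and 2139 CPM against 2246 and 2176 CPM (log2 -0.04), and MT-CYB, the heme-bearing core of complex III, 1526 and 1560 CPM against 1566 and 1695 CPM (log2 -0.08). The complex I genes MT-ND2 (log2 -0.15), MT-ND4 (-0.12), MT-ND5 (-0.10), MT-ND3 (-0.08) and MT-ND4L (-0.08) were below 0 and MT-ND1 was at 0.04. MT-ND1 and MT-ND4L overlapped control, the others lay below it by small margins. MT-ND4 and MT-ND4L, and MT-ATP6, MT-ATP8 and MT-CO3, overlap in the genome, so reads in the shared bases are uncertain.

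After 4 h of heme none of the 95 genes was called in edgeR, and none of the 91 with an adjusted p in DESeq2 (which gave none for the other 4), beside 5 of all 16209 genes (0.0308%; 0.0247% higher and 0.00617% lower). At an unadjusted p under 0.05 there were 4 genes: MT-ND3 (log2 -0.26, SE 0.09), MT-CYB (-0.21, SE 0.09), NDUFA1 (-0.26, SE 0.10) and COX7B (-0.23, SE 0.10), all with an edgeR adjusted p of 0.99995. Most values were below control. The median was -0.10 over the 82 nuclear genes, with 74 negative, and -0.15 over the 13 mitochondrial genes, all negative, beside -0.0028 over all genes. These medians rested on the 4 h libraries: they were -0.16 nuclear and -0.25 mitochondrial without 4 h replicate 1, and -0.04 (59 negative) and -0.03 without 4 h replicate 2. In 36 nuclear and 7 mitochondrial genes both 4 h libraries lay below both controls, and in 1 nuclear gene above, where 17.4% and 17.0% of all genes did so.

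The 24 nuclear genes that were lower at 2 h had 4 h means above their 2 h means and below their control means in all 24 cases, with a median of -0.14 against control and a range of -0.26 to -0.04. These 24 were chosen by their 2 h values, and both comparisons share the control libraries. The 4 h libraries differed from each other: replicate 1 lay above replicate 2 in 23 of the 24 genes, and it was within or above the control range in 13 of them, replicate 2 in 0. NDUFB3 had 48.5 and 44.1 CPM at 4 h, below both controls. UQCRB had 261 and 202 CPM and ATP5F1E 262 and 202 CPM, so that replicate 1 was above and replicate 2 below every control library.

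Set against 2 h, 7 of the 95 genes were higher (7.37%) and 3 lower (3.16%) at 4 h. Of all 16209 genes tested, 2270 were called higher (14%) and 2288 lower (14.1%), 28.1% in either direction. The 7 were NDUFB3, NDUFV2, UQCRB, COX6C, ATP5F1E, ATP5MD and ATP5PF, between log2 0.29 and 0.44, and the 3 were COX6B2, NDUFA4L2 and UQCRHL, between -0.996 and -0.84. All 10 had been called in the opposite direction at 2 h, and both comparisons share the 2 h libraries. COX6B2 had 8.71 and 7.98 CPM at 4 h against 16.8 and 16.5 CPM at 2 h (log2 -0.996, SE 0.16, edgeR adjusted p = 0.000368), the only one of the 10 that kept its call under each alternative. Both 4 h libraries lay above both 2 h libraries in 29 of the 82 nuclear genes and below them in 7, where 29.6% and 32.7% of all genes did so. Without 4 h replicate 1 none of the 7 genes called higher kept its call (6.91% of all genes were higher), and without 4 h replicate 2 there were 15 higher, 15.8% beside 11.5% of all genes. Of the mitochondrial genes 0 of 13 were called between 4 h and 2 h by edgeR, 0 of them at an unadjusted p under 0.05, with a median of -0.0038. That median was -0.15 without 4 h replicate 1 and 0.11 without 4 h replicate 2.

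Summed over all 88 nuclear genes, the messenger RNAs made up between 1.05% and 1.09% of gene counts at 2 h and between 1.06% and 1.11% at 4 h, against 1.14% and 1.16% in control. The 13 mitochondrial genes made up between 2.54% and 2.69% at 2 h and between 2.33% and 2.57% at 4 h, against 2.66% and 2.73% in control. The nuclear sums did not overlap control at either time. The mitochondrial sum at 2 h overlapped control, and at 4 h it did not. These sums are shares of plain totals, without TMM scaling. On TMM-scaled totals 11 of the 13 mitochondrial genes lay below both controls at 2 h, so the overlap of the sum depends on the scale. Reads of mitochondrial genes per read of nuclear genes were 2.32 and 2.55 at 2 h and 2.31 and 2.19 at 4 h, against 2.40 and 2.28 in control, so the balance between the genomes overlapped control at both times. The log2 ratio of nuclear to mitochondrial counts was -1.28 ± 0.0976 at 2 h and -1.17 ± 0.0554 at 4 h, against -1.23 ± 0.0486 in control. With 2 libraries a group no permutation test over samples could pass 0.05, and none was run.

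**Figure D4:**
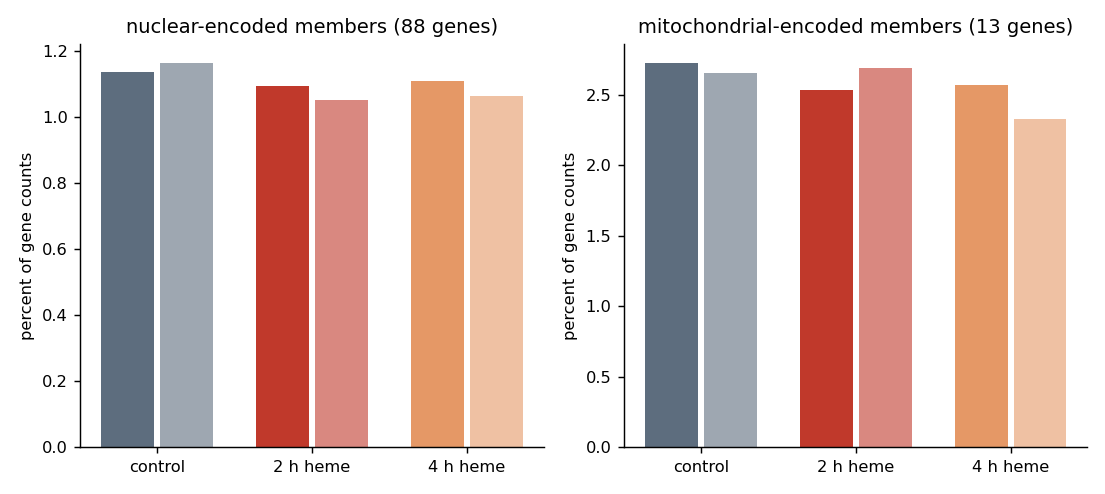
Summed counts of the nuclear genes (left) and of the mitochondrial genes (right) as percent of all gene counts in each library, dark bars for replicate 1 and pale bars for replicate 2. The nuclear bars at 2 h and 4 h are below both control bars, and the lowest mitochondrial bar, 2.33%, is 4 h replicate 2.

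For the mitochondrial genes, 4 h replicate 2 had the lowest value of the 6 libraries in 11 of 13, and control replicate 1 the highest in 9. For the nuclear genes, 2 h replicate 2 was lowest for 44 of 82 and control replicate 2 highest for 33. Reads outside annotated genes made up 5.87% and 6.88% of the 2 h libraries and 5.48% and 6.40% of the 4 h libraries, against 6.27% and 6.29% in control, and their part in these values was not tested.

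The 2 h change moved with base composition. Across the 82 nuclear genes the log2 change at 2 h had a Pearson correlation of 0.45 and a Spearman correlation of 0.45 with the GC content of the longest transcript, and across 16088 genes with a transcript sequence 0.26 and 0.31. Genes share libraries, so these are descriptions. Among genes with over 60% GC the median was -0.0016 for 7 nuclear subunits beside 0.25 for all genes, and among those between 40% and 45% GC it was -0.27 for 23 subunits beside -0.10 for all genes. Up to 40% GC the medians were alike, -0.20 for 7 subunits and -0.20 for all genes. All 24 nuclear genes called lower had at most 53.9% GC, with a median of 44.2% against 48.3% in the 55 not called, while the median transcript length was 755 against 750 bases.

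**Figure D5:**
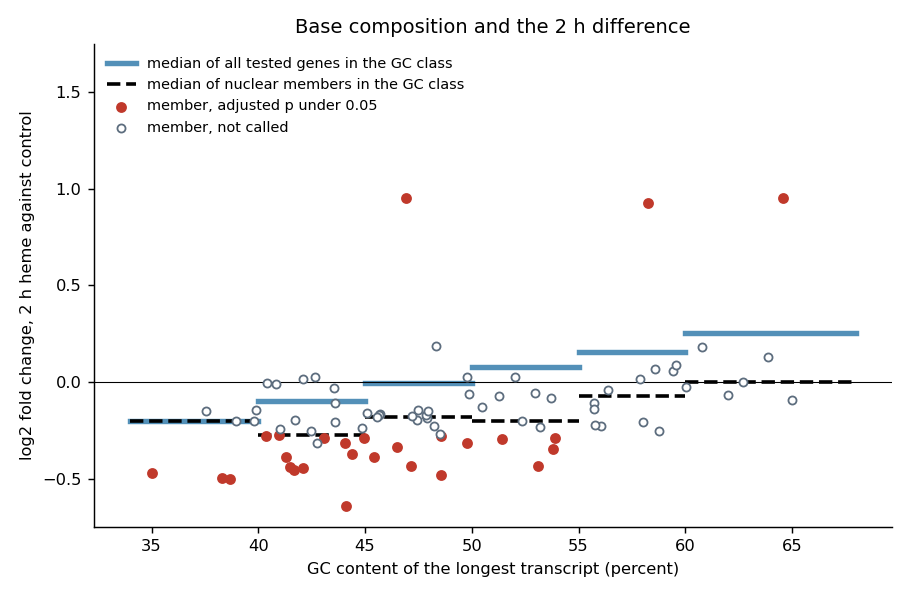
Log2 fold change at 2 h against control of the 82 tested nuclear genes by GC content of the longest transcript, filled where called; thick lines are medians of all tested genes in a GC class and dashed lines those of the nuclear subunits. In the 5 classes above 40% GC the dashed line lies below the thick one, and the 24 genes called lower all lie at or below 53.9% GC.

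Genes that build or serve the complexes were read from lists beside the subunits. Assembly factors had 17 of 54 lower (31.5%, beside 15.8% of all genes) and 1 higher at 2 h, with a median of -0.23. The lower count was 5 without control replicate 1, 8 without control replicate 2, 11 with library totals and 27 with the length and GC correction, where 6.59%, 9.33%, 11.2% and 23.7% of all genes were lower. NDUFAF4, COX16, COA7 and TMEM70 kept their call under each of the 15 alternatives, and of the other 14 all but NDUFAF1 lost it without control replicate 1. For complex I 6 of 16 fell, among them NDUFAF4 (16.7 and 22.0 CPM at 2 h against 37.1 and 31.0 CPM in control, log2 -0.82, SE 0.15), NDUFAF6 (-0.46) and NDUFAF5 (-0.44). For complex II SDHAF3 fell by 0.60 and SDHAF4 rose by 0.44 of 4 factors (edgeR adjusted p = 0.0489, lost under 7 of 15 alternatives), and for complex III BCS1L, which inserts the Rieske protein, fell by 0.44 and TTC19 by 0.33 of 6, both calls being lost when either control library was left out. For complex IV 7 of 23 fell, such as COX16 (-0.67), COA7 (-0.60) and LRPPRC (-0.49), a stabiliser of mitochondrial messenger RNA, while the heme A synthesis enzymes COX10 (-0.21) and COX15 (0.05) were not called. For complex V the ATP synthase assembly protein TMEM70 fell by 0.67, 1 of 5.

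The list for expression of mitochondrial DNA had the largest share of its genes called at 2 h among these lists. It had 12 of 21 lower (57.1%, beside 15.8% of all genes) and 0 higher, with a median of -0.49. It holds TFAM, which packages and transcribes mitochondrial DNA, with 144 and 189 CPM at 2 h against 263 and 245 CPM in control (log2 -0.61, SE 0.13, edgeR adjusted p = 0.00232), TFB2M (-0.85), MTERF3 (-0.86) and FASTKD3 (-0.89). The polymerase POLRMT was not called (-0.10). TEFM and MTERF4 lost their call when either control library was left out. With the length and GC correction 16 of the 21 were lower, where 23.7% of all genes were. The 13 mitochondrial messenger RNAs, by comparison, had a median of -0.12 at the same time. At 4 h none of the 21 was called against control (median -0.03), and 13 were higher than at 2 h (61.9%, beside 14% of all genes). TFAM, TWNK, TEFM, MTERF1, MTERF4 and SSBP1 lost that call without 4 h replicate 1.

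Electron carriers had 3 of 17 lower and 1 higher at 2 h (17.6% and 5.88%), a share of lower genes near the 15.8% of all genes. CYCS, cytochrome c, had 192 and 241 CPM at 2 h against 342 and 326 CPM in control (log2 -0.63, SE 0.13, edgeR adjusted p = 0.00198), the coenzyme Q synthesis genes PDSS1 and COQ3 fell by 0.70 and 0.40, and COQ8B rose by 0.76 on the log2 scale; COQ3 and COQ8B lost the call without control replicate 1. CYCS was the only one of 6 chain hemoproteins or heme-binding subunits called, the others being SDHC, SDHD, CYC1 (0.05), MT-CYB and MT-CO1. That share of lower genes, 16.7%, was near the 15.8% of all genes. Of 13 genes of the citric acid cycle, IDH3A (-0.41) and SUCLA2 (-0.46) fell, 15.4% beside 15.8% of all genes, and neither was called without control replicate 1. NDUFAB1, the acyl carrier subunit of complex I, fell by 0.30 (edgeR adjusted p = 0.0423) and lost the call under 5 of 15 alternatives, among them each control library left out and library totals. None of these lists had a gene called at 4 h against control.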

How the data were processed

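The deposited files are HTSeq-style tables of raw counts, whole numbers of reads for each gene symbol, with 1 file for each library. The submitters' processing notes name the hg38 build and the tools STAR, Trimmomatic, deepTools and SAMtools. Tool versions, the annotation release and the strand setting were not given in those notes, so reads of the 46 genes that share exon bases with another gene are uncertain. Summary lines stayed out of library sizes: reads outside genes made up between 5.48% and 6.88% and ambiguous reads between 4.23% and 4.48% of a library. All 101 symbols matched 1 gene of GENCODE release 29 (GRCh38), the source of gene coordinates and lengths.

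Genes were tested with edgeR 4.0.16 under R 4.3.3 (TMM, filterByExpr with a minimum count of 10, quasi-likelihood test, all 6 libraries in 1 fit with 3 residual degrees of freedom), with a biological coefficient of variation of 0.0982. The code was also run on simulated data with fewer and mostly larger changes than those found here. That run does not show how well changes as small as most of these are found. Gene CPM used TMM-scaled totals, and sums used plain totals. No replicate pair looked like 1 library deposited 2 times, with a chi-square per gene of 8.78 to 34.0 between its counts.

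The genes, lists and rules were chosen with earlier results of these data known. Named were, per comparison and complex, the 5 called genes with the smallest p in each direction, all mitochondrial genes, core subunits, second copies, the highest gene per complex and, in each list, the 3 genes with the smallest p or all called where 5 or fewer. Other genes named were picked with their values in view. Some genes that this rule names are not reported here. The alternatives comprised DESeq2 (1.42.0), its size factors in edgeR, library totals, mitochondrial genes out of library sizes, no filter, a replicate block, only the compared groups, a length and GC correction (loess span 0.3, values for 99.25% of genes) and leaving out each library. A crossed replicate block and the counts of lists under each alternative were added after the data were seen. Protein sequences were not used here.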

Additional observations from a re-analysis of the deposited data

Results flagged for a closer look

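For 10 genes the change differed between the 2 times, by the test of 4 h against 2 h itself (edgeR adjusted p under 0.05, n = 2 libraries each, values on the log2 scale). Of the 95 genes tested, 7.37% were higher and 3.16% lower, below the 14% and 14.1% of all genes. NDUFB3 (0.44), UQCRB (0.40), ATP5F1E (0.40), ATP5PF (0.34), COX6C (0.33), ATP5MD (0.33) and NDUFV2 (0.29) were higher at 4 h than at 2 h, each in 2 of 2 libraries. Without 4 h replicate 1 none of these 7 was called. UQCRHL (-0.87), NDUFA4L2 (-0.84) and COX6B2 (-0.996) were lower at 4 h than at 2 h in 2 of 2 libraries. UQCRHL lost its call without 2 h replicate 1, 4 h replicate 1 or 4 h replicate 2, and NDUFA4L2 without 2 h replicate 1 or 4 h replicate 1.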

How the results depend on the processing

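Across the alternatives run, no gene called in a comparison changed direction. At 2 h against control the count of 25 lower became 12 with library totals and 43 with the length and GC correction (11.2% and 23.7% of all genes lower, against 15.8%), and 3 were higher with each of these. Leaving out 1 library gave between 4 and 31 lower and between 1 and 3 higher, with between 6.59% and 20.2% of all genes lower. At 4 h against control every alternative called 0 genes, DESeq2 giving no adjusted p for 4. At 4 h against 2 h the 7 higher became 11 with DESeq2, 3 with library totals, 4 with only the compared groups and 23 with the length and GC correction (16.2%, 10.1%, 12.2% and 23.3% of all genes higher, against 14%), and leaving out 1 library gave between 0 and 15 higher and between 1 and 3 lower. The cause was not tested. Across 16209 genes the replicate 1 deviations from the group means had correlations of -0.20 for control and 2 h, 0.16 for control and 4 h, and -0.10 for 2 h and 4 h. With 2 libraries a group these values cannot decide whether libraries of different groups are paired. With the replicate block 21 were lower and 3 higher at 2 h, where 14.6% and 15.1% of all genes were. At 4 h against 2 h it gave 6 higher and 3 lower, where 12.7% and 13.3% of all genes were. With the numbers of the 2 h libraries crossed, chosen after seeing the data, 37 were lower at 2 h and 14 higher at 4 h against 2 h. These shares, 38.9% and 14.7%, stand beside 19.8% and 18.4% of all genes.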
